A study of Mus musculus with 24 samples.

Results

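Chemokines are small secreted proteins that attract cells, and chemokine receptors are the G protein-coupled receptors that read them. This report follows both families in 24 mammary tumors of female BALB/c mice, by diet and by time of tumor onset. The genes were taken from the array by name: every gene called Ccl, Cxcl, Ccr or Cxcr with a number, plus Cx3cl1, Cx3cr1, Xcl1 and Xcr1. That gave 54 genes, 35 ligands and 19 receptors, of the 30119 genes named on the array, measured by 70 of its 39429 probes.

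Every mouse had been given the carcinogen DMBA by gavage in peripuberty. Mice ate a low-fat diet (LFD) or a diet rich in saturated fat of animal origin (HFD) from peripuberty on, and some were switched to the other diet in adulthood. The label LFD-HFD is the switch to high fat and HFD-LFD the switch to low fat. Tumors were labelled Early or Late by their onset, which gave HFD Early (n = 3), HFD-LFD Early (n = 3), LFD Late (n = 5), HFD Late (n = 6), LFD-HFD Late (n = 4) and HFD-LFD Late (n = 3). No early tumor came from a mouse that began on LFD, so over all tumors onset and early diet overlap. Each array held total RNA of 1 tumor, from the whole tissue, beside RNA pooled from 11 mouse cell lines. Nothing in the labels says whether any mouse gave more than 1 tumor, and the p-values describe the spread between these tumors.

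Chemokine receptors signal through Gi proteins to the actin skeleton and integrins, and so steer leukocytes along a gradient of ligand. Inflammatory ligands are induced in macrophages, stroma and epithelium by NF-kappaB and interferon signals. Homeostatic ligands such as Cxcl12, Ccl19 and Ccl25 are made steadily by stromal or epithelial cells. In mammary tumors the Ccl2, Ccl5, Cxcl12 and Cx3cl1 axes are known mainly for recruiting macrophages and T cells and for the spread of cancer cells that carry Cxcr4 or Ccr7.

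Values are log2 ratios of tumor over reference, with tumor in Cy5 as the labels give it, which is the opposite of the dyes in the study's methods. The labels' direction was kept because the median SD between arrays was 0.476 in Cy5 and 0.187 in Cy3, the smaller spread being that of a channel that holds the same RNA throughout, and because 2 probes of Y chromosome genes, absent from female mice, lay below 0 on 24 of 24 arrays. On 7 arrays (slides 6 and 7, all late tumors, the only ones scanned in session 3) a block of rows was dim in Cy5, and 16.4% to 20.2% of their spots were set missing. Values missing for this reason or for a scanner flag lower the number of tumors behind some results. The luminal keratins Krt8 and Krt18 and the epithelial Epcam were well above background in tumor RNA on all 24 arrays. In whole tissue, fewer cells of a type and less RNA per cell cannot be told apart.

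Of the 54 genes, 43 (29 ligands and 14 receptors) gave enough signal in both channels to be tested. In early against late tumors (6 against 18), 6 of the 43 were called at an adjusted p under 0.05. The ligands Cx3cl1, Cxcl12 and Cxcl15 and the receptor Cxcr6 fell in early tumors. The receptors Cxcr4 and Ccr7 rose. Of all 20575 genes with a value in both onset classes, 15.8% were called, so the share among chemokine genes (14%) was near the background. By direction, 2 of 43 were higher against 6.09% of all genes, and 4 were lower against 9.66%. The median difference, early minus late, was -0.23 over the 43 genes and -0.05 over all genes. No chemokine gene separated the onset classes without overlap, as 0.938% of all genes did.

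**Figure D1:**
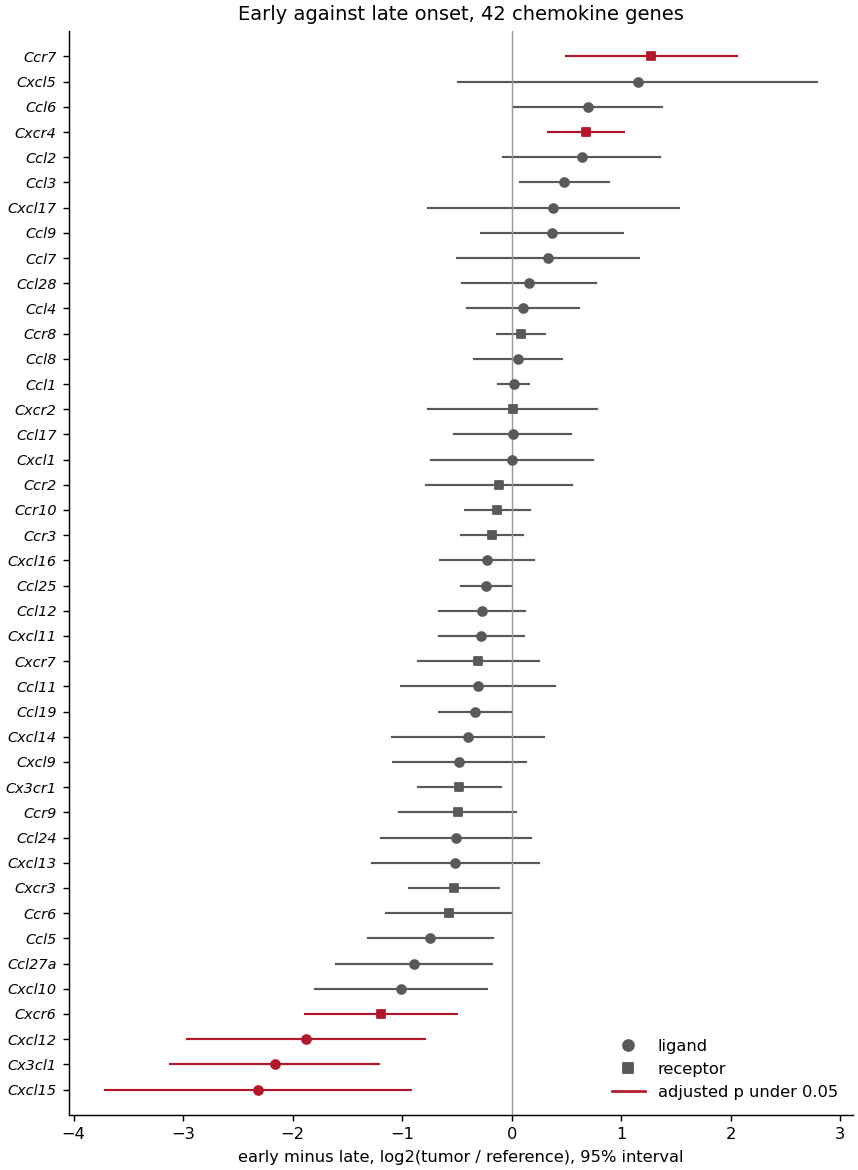
Difference between early and late tumors (x axis, early minus late on the log2 scale, with its 95% interval) for 42 chemokine genes tested, ordered by size, with circles for ligands and squares for receptors. The 6 genes in red passed an adjusted p of 0.05, 4 of them below 0 and 2 above.

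Cx3cl1 (fractalkine) is a membrane-tethered ligand of epithelium and endothelium that holds monocytes and T cells through Cx3cr1. Its log2 ratios were 0.36, -0.65 and -0.06 in HFD Early tumors and -0.33, -0.74 and -0.86 in HFD-LFD Early tumors. Late tumors (15 of 18 with a value) had a lowest value of -0.59, a median of 2.40 and a highest of 3.10. All 6 early tumors lay below the late median, and 13 of the 15 late tumors lay above the highest early one. The 2 late tumors inside the early range, MSU_86 and MSU_96, were both from HFD mice. The difference was -2.17 (SE 0.46, adjusted p = 0.00443), a 4.49-fold lower level in early tumors. Within scan session 1, with the 3 HFD Early tumors, it was -2.02 and did not pass in limma (adjusted p = 0.108). Within session 2, with the 3 HFD-LFD Early tumors, it was -2.84 (adjusted p = 0.00946).

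The receptor Cx3cr1, found on macrophages, NK cells and some T cells, differed by -0.48 (SE 0.19, adjusted p = 0.0774), which did not pass. Its 6 early tumors ran from 0.78 to 2.12 and its 17 late tumors from 1.24 to 2.80. A second Cx3cr1 probe gave -0.32.

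Cxcl12 (SDF-1) is a stromal ligand, and Cxcr4 is its main signalling receptor. These genes moved in opposite directions. Cxcl12 read -0.96, -3.48 and -3.21 in HFD Early tumors and -2.66, -3.16 and -2.27 in HFD-LFD Early tumors, while late tumors reached from -4.19 up to 1.19, their median being -0.68. Early tumors were all below the late median, and 11 of 18 late tumors were above the highest early one. The LFD tumor MSU_137 had the lowest value of all 24. The difference was -1.88 (SE 0.53, adjusted p = 0.0188), 3.68-fold, and a second Cxcl12 probe that also passed gave -2.08. Without the HFD Early tumor MSU_768 or MSU_97 the adjusted p was 0.0617 or 0.0503.

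Cxcr4 read 0.76, 1.38 and 1.68 in HFD Early tumors and 1.52, 1.66 and 1.39 in HFD-LFD Early tumors. The 17 late tumors with a value ran from 0.16 to 1.35 with a median of 0.73. All 6 early tumors were above that median, 10 late tumors were below the lowest early one, and none was above the highest. Cxcr4 rose by 0.68 (SE 0.17, adjusted p = 0.00983), 1.60-fold, and stayed past the threshold whichever single array was left out. The scavenging receptor of the same ligand, Cxcr7 (Ackr3 in RefSeq), differed by -0.30 (SE 0.27, adjusted p = 0.447), with all 14 measured late tumors inside the early range, and by 0.20 with median centring.

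The windows upstream of Cx3cl1, Cxcl12 and Cxcr4 are shown because these 3 genes had the smallest adjusted p-values. Each holds the 250 bases before the RefSeq transcription start (GRCm38.p6), written 5′ to 3′ on the gene's strand: Cx3cl1 at chr8:94771930-94772179 (+), Cxcl12 at chr6:117168285-117168534 (+) and Cxcr4 at chr1:128592300-128592549 (-). Capitals mark matches, on either strand, to any of 6 motifs that were searched: a kappaB site, a GAS element, an ISRE core, a hypoxia response element, a TATA box and a GC box.
Cx3cl1: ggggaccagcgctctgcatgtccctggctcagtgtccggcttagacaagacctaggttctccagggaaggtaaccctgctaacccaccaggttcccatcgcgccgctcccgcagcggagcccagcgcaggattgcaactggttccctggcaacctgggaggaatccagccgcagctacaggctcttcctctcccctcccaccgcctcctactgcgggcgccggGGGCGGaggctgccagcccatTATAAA
Cxcl12: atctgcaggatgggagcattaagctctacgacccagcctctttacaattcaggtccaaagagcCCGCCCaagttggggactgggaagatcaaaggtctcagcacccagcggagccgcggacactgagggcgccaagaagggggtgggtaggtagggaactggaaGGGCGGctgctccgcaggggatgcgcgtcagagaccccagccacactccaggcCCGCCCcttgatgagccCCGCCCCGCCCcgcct
Cxcr4: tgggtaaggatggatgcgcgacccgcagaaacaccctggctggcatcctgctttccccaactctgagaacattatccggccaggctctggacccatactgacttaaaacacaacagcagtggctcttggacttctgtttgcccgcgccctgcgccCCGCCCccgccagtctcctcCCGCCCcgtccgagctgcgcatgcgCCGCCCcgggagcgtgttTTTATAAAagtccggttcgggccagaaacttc
The Cxcl12 window held 5 GC boxes (GGGCGG), some overlapping, and Cxcr4 held 3 with a pair of overlapping TATA box matches on opposite strands, the nearer 30 bases before the start. Cx3cl1 held 1 GC box and a TATA box match 6 bases before the start. Of 32841 such windows of all genes, 32.7% held a GC box, against 18.6% of 43 windows of chemokine genes. The TATA box, searched as TATAAA, was in 12.4% of all windows and 27.9% of the 43. RefSeq windows were found for 39 of the 54 genes, and none was in the table for Ccr7. A match describes letters, not a site in use.

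Cxcl15 (lungkine) is a ligand known from mouse epithelia that attracts neutrophils. It lay between -3.62 and -2.45 in the 6 early tumors, with a median of -3.21. The 18 late tumors ranged widely, from -3.77 to 1.66 around a median of -0.51. Of these, 13 were above the highest early value. The difference was -2.32 (SE 0.68, adjusted p = 0.0236), 4.98-fold. The low end of this gene rests on weak signal, since its tumor channel was well above background on 19 of 24 arrays, 4 of 6 of them early. The adjusted p was 0.0552 without MSU_768 and 0.0569 without MSU_97.

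For both Cx3cl1 and Cxcl15 the luminal marker list moved the same way over all tumors without passing. None of its 5 genes was called, and 4 had negative differences, Epcam being the positive one (0.44). The list mean ran from -0.07 to 2.29 in early tumors (median 0.51) and from -2.78 to 2.86 in late tumors (median 2.27). Beside Cxcl12, the fibroblast list had 1 of 5 genes called lower, Dcn (-2.46, adjusted p = 0.00916), with 3 negative and 2 positive (Col1a1 0.45, Pdgfra 0.27), and a list mean of -3.00 to -2.35 in early and -3.30 to 0.11 in late tumors. Within HFD the luminal markers Krt18 (2.11), Epcam (1.30) and Cdh1 (0.24) had positive onset differences. Krt8 (-0.21) and Krt19 (-2.04) had negative ones there, and none of these was called. The part of either cell type in these results was not tested.

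Cxcr6 is a receptor of activated T cells and NK T cells. Its early values were -0.11, 0.24 and 0.98 in HFD and 1.36, 1.30 and 1.43 in HFD-LFD tumors. The 14 late tumors with a value ran from 0.95 to 3.41 around a median of 1.88. Of these, 11 were above the highest early one. Cxcr6 fell by 1.19 (SE 0.33, adjusted p = 0.0211), a 2.29-fold difference, and a second probe gave -0.88. The 4 late arrays without a value are those of slide 6. With their dim rows kept in, the difference was -0.56 and did not pass (adjusted p = 0.552). It also lost its call without MSU_163 (adjusted p = 0.0628) or MSU_768 (adjusted p = 0.067). Its ligand Cxcl16, a transmembrane chemokine of macrophages, differed by -0.23 over 6 early and 14 late tumors (SE 0.21, adjusted p = 0.475; 0.18 with median centring), and 4 of 6 early tumors were above the late median.

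Ccr7 brings dendritic cells, naive T cells and Ccr7-bearing tumor cells toward Ccl19 and Ccl21. It read 2.01, 2.60 and 2.13 in HFD Early tumors and 3.70, 3.41 and 3.20 in HFD-LFD Early tumors. In the 17 late tumors with a value the lowest was 0.17, the median 1.39 and the highest 3.49, and 14 of them were below the lowest early tumor. Ccr7 rose by 1.27 (SE 0.38, adjusted p = 0.0255), 2.42-fold. Without MSU_51, MSU_54 or MSU_62b, the 3 HFD-LFD Early tumors, the adjusted p was 0.0706, 0.0582 or 0.0573. Late tumors differed by diet group, with means of 2.19 in HFD, 2.08 in HFD-LFD (n = 2), 1.09 in LFD and 0.99 in LFD-HFD. The HFD Early mean was 2.25, so within HFD Ccr7 differed by 0.06 (limma, adjusted p = 0.942). Its ligand Ccl19 differed by -0.33 over 6 early and 15 late tumors (SE 0.16, adjusted p = 0.151). Its other probes that passed gave -0.68 and -0.16, and Ccl19 has near-identical copies in the mouse genome, so its value is uncertain.

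**Figure D2:**
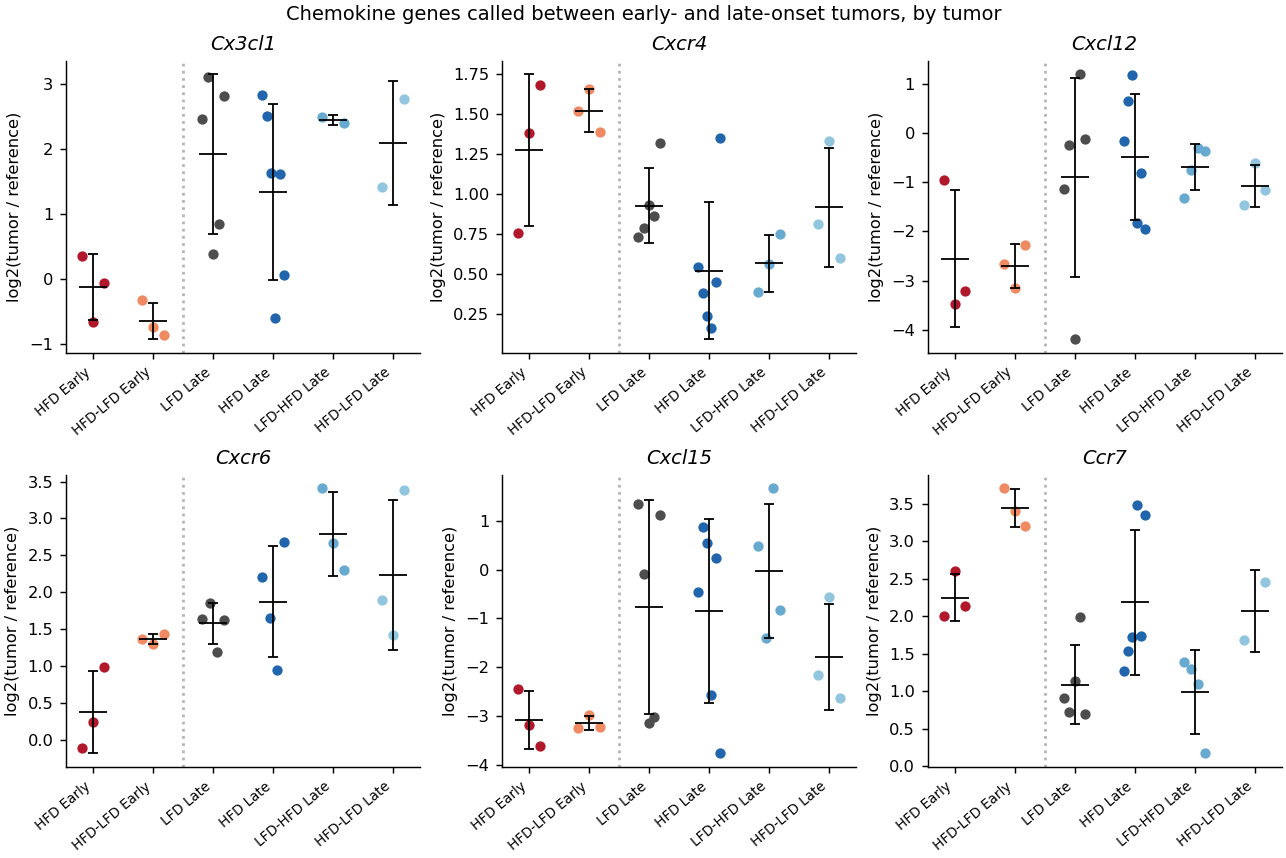
Log2 ratio of tumor over reference (y axis) in each tumor for the 6 genes called between early and late onset, by group (x axis), with a bar at the group mean and whiskers of 1 SD. Early groups stand left of the dotted line. The 6 early tumors lie below the late median for Cx3cl1, Cxcl12, Cxcl15 and Cxcr6 and above it for Cxcr4 and Ccr7.

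Onset could be compared within a slide on slide 4 alone. Slide 2 held the 3 HFD Early tumors alone. Slide 4 held the 3 HFD-LFD Early tumors with 1 late tumor, MSU_45 of LFD-HFD, so onset and diet differ together there. No other slide held an early tumor. With slide as a fixed block in limma, the onset difference was the mean of these 3 early tumors less MSU_45. It rests on 1 late tumor, so no p-values are given for it. With slide as a random block 2 were called, Cx3cl1 and Cxcr6. Without MSU_768 the count was 3, Ccr7, Cx3cl1 and Cxcr4. The share of all genes called is not given for these settings, so the lower counts are not particular to chemokine genes. Under the random block all 6 differences kept their sign. With the fixed block they were -3.04 for Cx3cl1, -2.39 for Cxcl12, -4.81 for Cxcl15, -1.31 for Cxcr6 and 2.34 for Ccr7. Cxcr4 had no value in MSU_45, so its onset difference could not be estimated within a slide.

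Among ligands that did not pass, Ccl2, Ccl3 and Ccl6 of the inflammatory CC group had positive differences. Ccl2, which recruits monocytes through Ccr2, differed by 0.64 (SE 0.35, adjusted p = 0.206), and its 6 early tumors (0.98 to 1.72) all lay above the late median of 0.72. Ccl3, a ligand of Ccr1, differed by 0.48 (SE 0.20, adjusted p = 0.0958), with early values from 1.05 to 1.86 and late values from 0.60 to 2.18. Ccl6, a macrophage chemokine, differed by 0.69 (SE 0.33, adjusted p = 0.149) over 5 early and 14 late tumors. Median centring of each array in place of loess moved the median difference of all genes to 0.22. It called 11 chemokine genes, 7 higher and 4 lower, with no share of all genes given for that setting. Ccl2, Ccl3 and Ccl6 were among the higher ones, with differences of 1.05, 0.73 and 1.12. In the macrophage list 1 of 8 genes was called, Lyz2 (0.68, adjusted p = 0.0434), 4 were negative, Cd14 the most (-1.21, adjusted p = 0.0557), and the median was -0.02. The list mean was 0.22 to 0.55 in early and 0.00166 to 1.13 in late tumors. The part of macrophages was not tested.

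The interferon-inducible ligands and their receptor had negative differences, none of them past the threshold. Cxcl10 differed by -1.01 (SE 0.38, adjusted p = 0.0699), with 5 early tumors from -0.62 to 1.54 and 18 late tumors from 0.48 to 3.33. Cxcl11 differed by -0.28 over 6 early and 15 late tumors (SE 0.19, adjusted p = 0.313), which turned to 0.13 with median centring. Its second probe gave -0.08. Their shared receptor Cxcr3, carried by Th1 and cytotoxic T cells, differed by -0.53 over 6 early and 14 late tumors (SE 0.20, adjusted p = 0.0729), and 5 of 6 early tumors were below the late median. Irf1, a transcription factor of interferon signalling and a member of the signalling list, fell by 0.98 (adjusted p = 0.00486).

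In the T cell list 0 of 8 genes were called, 7 were negative, and the median difference was -0.87. The list mean ran from -1.53 to -0.39 in early tumors and from -0.77 to 2.40 in late ones. Of the NK list 2 of 5 genes could be tested. Gzma fell by 1.80 (adjusted p = 0.0246), and Prf1 differed by -0.12 (adjusted p = 0.611). The part of these cells in the Cxcr6 and Cxcr3 values was not tested.

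Cxcl5, a neutrophil attractant that signals through Cxcr2, had the second largest positive difference (1.15, SE 0.79, adjusted p = 0.326). Early tumors ran from 1.94 to 4.30 (5 with a value) and late tumors from -0.21 to 5.55. Its highest value was in a late HFD tumor, MSU_86. The gut-homing pair Ccl25 and Ccr9 differed by -0.23 (adjusted p = 0.162) and -0.49 (adjusted p = 0.186), the first turning to 0.16 with median centring. The other tested genes lay between -0.89 (Ccl27a, a skin chemokine) and 0.38 (Cxcl17), and none was called. Ccl5, which draws T cells and monocytes, differed by -0.74 (adjusted p = 0.0661). These 3 names were chosen after their values were seen.

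Ccl1, Ccl3, Ccl17, Ccl20, Ccl22 and Ccl24 were looked at because they were also followed in mammary glands of mice on these diets. Ccl1, a ligand of Ccr8, read 0.05 to 0.34 in early and -0.02 to 0.44 in late tumors, a difference of 0.02 (95% interval -0.13 to 0.16). This narrow interval rests on weak signal, well above background on 20 of 24 arrays in tumor RNA and 10 in the reference. A second Ccl1 probe, which did not pass the filter, gave 0.17. Ccl17, a ligand of Ccr4, differed by 0.01 over 5 early and 17 late tumors (95% interval -0.53 to 0.54). Ccl24 (eotaxin-2, an eosinophil attractant) differed by -0.51 (SE 0.32, adjusted p = 0.294) over 4 early and 12 late tumors. Ccl20 was well above background in tumor RNA in 0 of 6 early and 2 of 18 late tumors, and Ccl22 in 0 of 6 and 1 of 14 with a spot that was not dim.

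**Figure D3:**
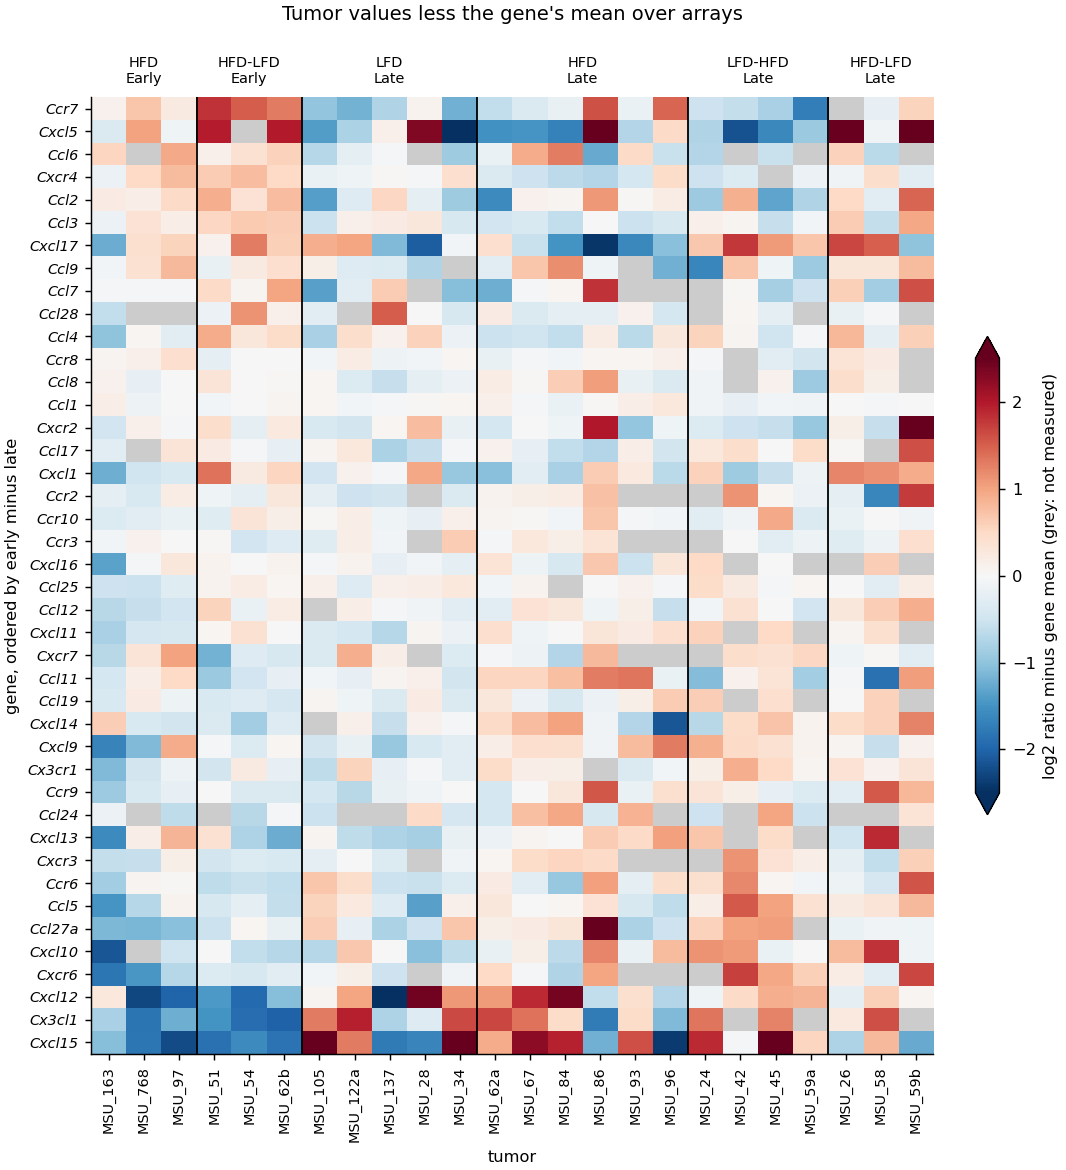
Each tumor's log2 ratio less the gene's mean over the arrays (colour, red above and blue below, grey where not measured) for 42 chemokine genes (rows, ordered by early minus late) in 24 tumors (columns, by group). In the lowest rows, Cxcl15, Cx3cl1 and Cxcl12, the early columns are mostly blue and the late HFD tumors MSU_86 and MSU_96 and the LFD tumor MSU_137 are blue as well.

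The signal filter left out 11 genes: Ccl20, Ccl22, Ccl26, Ccr1, Ccr4, Cxcl2, Cxcl3, Cxcr1, Cxcr5, Xcl1 and Xcr1. For some the reference RNA was the dark channel. Cxcl2 and Cxcl3, neutrophil-attracting ligands of Cxcr2, were well above background in the reference on 0 arrays. Over arrays whose spot was not dim, Cxcl2 was detected in tumor RNA in 6 of 6 early and 6 of 15 late tumors, and Cxcl3 in 6 of 6 early and 4 of 14 late tumors. The receptor Cxcr1 was detected in 5 of 6 early and 9 of 18 late tumors. Xcl1, a ligand of T and NK cells, ran the other way, with 4 of 6 early and 15 of 15 late tumors.

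Without the filter on low signal 10 chemokine genes were called instead of 6, with no share of all genes given for that setting. The 4 more were Cxcl2, Cxcl3 and Ccl20 (higher) and Xcl1 (lower). The reference was well above background for these 4 genes on 2 arrays at most, and Ccl20 in tumor RNA in 0 of 6 early tumors, so their differences are not given. In the neutrophil list 1 of 7 genes was called, Elane (-0.57, adjusted p = 0.0113), 5 of 7 were negative and the median difference was -0.17. S100a8 (2.24, adjusted p = 0.205) and S100a9 (2.61, adjusted p = 0.168), the positive ones, did not pass. The list mean was -3.21 to -0.95 in early and -3.49 to 1.11 in late tumors, and the part of neutrophils was not tested.

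**Figure D4:**
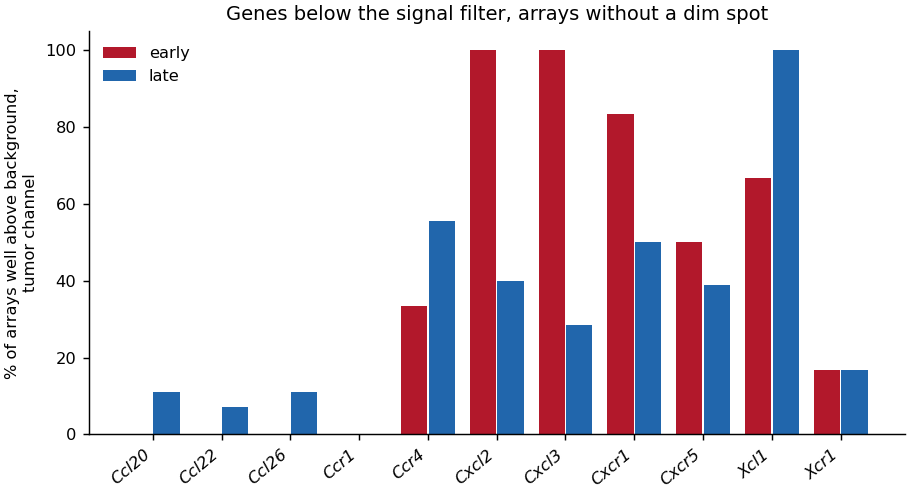
Share of arrays (y axis, %) on which each of the 11 genes that did not pass the filter was well above background in tumor RNA, in early and late tumors, over arrays whose spot was not dim. Cxcl2 and Cxcl3 were detected in all 6 early tumors and in 6 of 15 and 4 of 14 late ones.

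Cxcl1, Cxcl2 and Cxcl3 sit together on mouse chromosome 5, and their upstream windows are shown because all 3 match the kappaB motif. They lie at chr5:90890995-90891244, chr5:90903649-90903898 and chr5:90785851-90786100 (GRCm38.p6, + strand), with capitals for the same 6 motifs.
Cxcl1: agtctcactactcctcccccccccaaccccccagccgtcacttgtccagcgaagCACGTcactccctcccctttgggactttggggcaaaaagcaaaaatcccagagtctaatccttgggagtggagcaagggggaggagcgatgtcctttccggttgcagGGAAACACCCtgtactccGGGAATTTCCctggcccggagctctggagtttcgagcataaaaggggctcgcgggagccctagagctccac
Cxcl2: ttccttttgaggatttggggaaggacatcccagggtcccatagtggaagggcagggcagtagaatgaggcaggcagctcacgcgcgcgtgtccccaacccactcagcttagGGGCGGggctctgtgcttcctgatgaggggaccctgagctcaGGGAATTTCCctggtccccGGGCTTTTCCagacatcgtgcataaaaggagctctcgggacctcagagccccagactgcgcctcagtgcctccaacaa
Cxcl3: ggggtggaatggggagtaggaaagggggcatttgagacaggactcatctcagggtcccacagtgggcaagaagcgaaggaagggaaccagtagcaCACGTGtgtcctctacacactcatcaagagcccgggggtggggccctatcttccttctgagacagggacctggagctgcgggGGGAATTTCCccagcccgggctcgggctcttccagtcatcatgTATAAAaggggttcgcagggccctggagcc
Cxcl1 and Cxcl2 each held 2 kappaB matches and Cxcl3 held 1, and all 3 windows held GGGAATTTCC. Among all windows 1.41% held the kappaB motif, and among 43 windows of chemokine genes 6 did (14%). Cxcl1 and Cxcl3 also held a hypoxia response element (ACGTG), which was in 16.6% of all windows. Cxcl1, the tested gene of the 3 and named for its window, had an onset difference of 0.0048 on the log2 scale (95% interval -0.73 to 0.74).

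Other genes of chemokine signalling were followed as a list of 53, of which 45 could be tested. Of these 1 rose, Tiam1 (0.89, adjusted p = 0.0274), an activator of Rac in cell migration. Another 5 fell: the decoy receptor Ackr1 (-0.79, adjusted p = 0.0472), the receptor kinase Grk3 (-1.31, adjusted p = 0.00519), the Rac activator Prex1 (-0.86, adjusted p = 0.0103), lymphotoxin Ltb (-0.87, adjusted p = 0.0227) and Irf1, given above. Over all genes 6.09% were called higher and 9.66% lower. The median difference of the list was -0.21. The atypical receptors Ackr2 (-0.76) and Ackr4 (-0.61), which remove ligands, did not pass.

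Within the HFD diet (3 early against 6 late tumors), 4 of 43 chemokine genes were called, where 11.5% of all genes were. Cxcl11 fell by 0.75 (SE 0.17, adjusted p = 0.0123), from 0.995 ± 0.218 (SD, n = 6) in late to 0.24 ± 0.23 (SD, n = 3) in early tumors. The early values were -0.03, 0.36 and 0.40 and the lowest late value was 0.68. A second Cxcl11 probe, with a mean log2 intensity of 11.34 against 15.97, gave -0.52. Without the early tumor MSU_163 the adjusted p was 0.0738, and with median centring the difference was -0.40 (adjusted p = 0.49).

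Cxcr6 fell by 1.502 within HFD (SE 0.44, adjusted p = 0.036) over 3 early and 4 late tumors, and Cxcr4 rose by 0.76 (SE 0.24, adjusted p = 0.0429). Cx3cl1, Cxcl12, Cxcl15 and Ccr7, called over all tumors, did not pass within HFD. Their differences were -1.46, -2.07, -2.23 and 0.06 (limma, adjusted p = 0.171, 0.114, 0.168 and 0.942). Ccl25 fell by 0.47 (SE 0.14, adjusted p = 0.0379), but 2 of its other probes gave -0.13 and 0.15, and the mean over passing probes gave -0.29 (adjusted p = 0.288). Slide 2 held these early tumors alone, so slide and onset cannot be told apart within HFD. With the HFD tumors fitted alone 0 of 43 passed, and with slide as a random block 0 passed. Left out singly, MSU_163, MSU_67 or MSU_768 each cut the count to 1, and MSU_62a or MSU_86 to 2, while without MSU_96 it was 6. The share of all genes is not given for these settings. Cxcr4 lost its call within HFD in 18 of 39 alternatives and Ccl25 in 15 of 39.

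Within HFD-LFD (3 against 3) 0 of 43 chemokine genes were called by limma, where 0.706% of all genes were. At an unadjusted p under 0.05 there were 9, against 14.1% of all genes. The nearest was Cx3cl1, at -2.74 (SE 0.89, adjusted p = 0.166) with 2 late tumors measured. Ccr7 differed by 1.36 (adjusted p = 0.281), Cxcr4 by 0.61 (adjusted p = 0.321) and Cxcl10 by -1.27 (adjusted p = 0.316). With array weights 3 were called, Cx3cl1, Ccr7 and Cxcl10, with no share of all genes given for that setting.

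The onset difference was then compared between both diets. None of the 43 differed at an adjusted p under 0.05 (0.00491% of all genes did), and 4 did at an unadjusted p under 0.05, against 7.68% of all. Those were Ccr8 (0.58), Ccl25 (-0.61), Cxcl11 (-0.67) and Ccl17 (1.15), each given as the HFD difference minus the HFD-LFD one, Ccr8 being named after its value was seen. Ccr7 shows the spread of the estimates: 0.06 within HFD, 1.36 within HFD-LFD, and an interval of -2.80 to 0.20 for the difference between them. Of the 43 genes 29 (67.4%) ran the same way in both diets, against 67.8% of all genes.

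**Figure D5:**
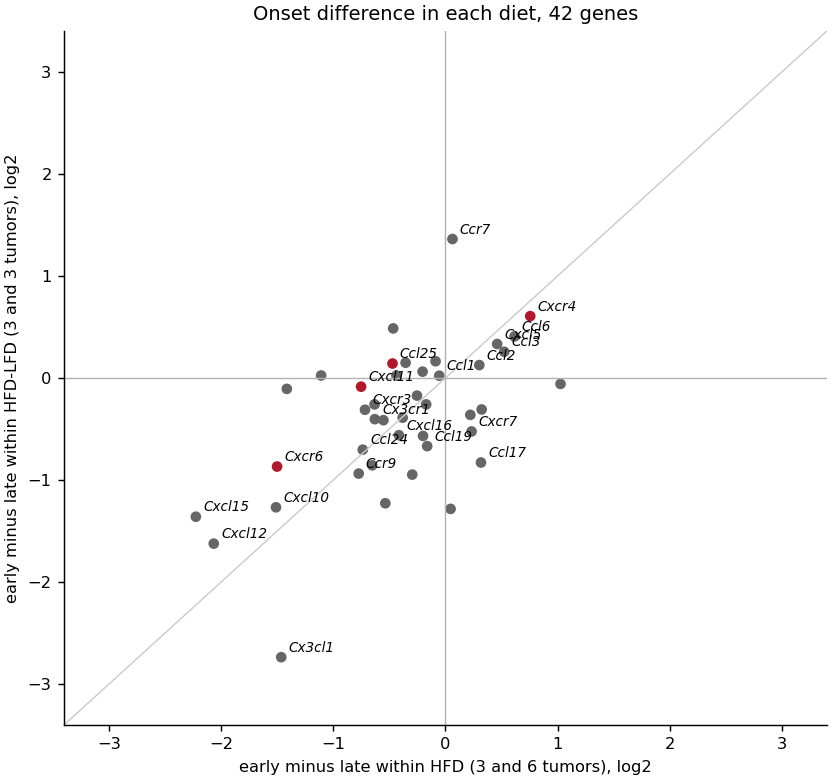
Early minus late difference on the log2 scale within HFD (x axis) and within HFD-LFD (y axis) for 42 chemokine genes, with the line of equality. Red points are the 4 genes called within HFD. Cx3cl1, Cxcl12, Cxcl15, Cxcr6 and Cxcl10 lie in the lower left, and Ccr7 stands near 0 on the x axis and at 1.36 on the y axis.

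Diet showed no call among the chemokine genes. For HFD against LFD (9 against 5 tumors), 0 of 43 were called and 0% of all genes were. At an unadjusted p under 0.05 there were 3, against 4.31% of all genes: Ccr7 (1.12, SE 0.37), Ccr2 (0.50, SE 0.19) and Ccl11 (0.61, SE 0.27), the last 2 named after their values were seen. Ccr2 was measured in 7 HFD and 4 LFD tumors. Each had an adjusted p of 0.977. Ccr7 read 0.91, 0.73, 1.14, 1.99 and 0.69 in the 5 LFD tumors, and its 9 HFD tumors ran from 1.28 to 3.49, so that only MSU_28 of the LFD tumors lay inside the HFD range.

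Holding onset at late gave the same count. For late HFD against LFD 0 of 43 were called (0% of all genes), with 6 at an unadjusted p under 0.05 against 8.42% of all. The nearest was Cxcl11, with 0.47 ± 0.30 (SD, n = 5) in LFD and 0.995 ± 0.218 (SD, n = 6) in HFD tumors, a difference of 0.52 (SE 0.15, adjusted p = 0.334). Ccr7 differed by 1.09 (adjusted p = 0.461) and Cxcr3 by 0.55 (adjusted p = 0.588), over 4 tumors in each group. Cxcr4 differed by -0.41 (95% interval -0.83 to 0.01).

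Switching to high fat in adulthood was compared with LFD throughout (4 against 5 late tumors). None of 43 chemokine genes was called, where 1.04% of all genes were, and 8 passed an unadjusted p of 0.05, against 17.9% of all. Cxcl11 was again nearest, at 0.86 (SE 0.20, adjusted p = 0.0512), but 2 of the 4 LFD-HFD tumors had a value, 1.37 and 1.29. It was called without MSU_28, MSU_34, MSU_86 or MSU_96. Cxcr6 differed by 1.21 (adjusted p = 0.163), Cxcr3 by 0.72 (adjusted p = 0.175), Ccl19 by 0.63 (adjusted p = 0.188) and Cx3cr1 by 0.53 (adjusted p = 0.259). All LFD tumors but 1 lay on slide 1 and no LFD-HFD tumor did. This contrast, the late HFD one and the HFD one share the LFD tumors.

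For the crossed diets with late onset (HFD-LFD 3, LFD-HFD 4), 0 of 43 were called, where 0.00489% of all genes were, and 6 passed an unadjusted p of 0.05, against 7.19% of all. Cxcl5 differed most, by 3.02 (SE 1.07, adjusted p = 0.646). Its HFD-LFD tumors read 4.77, 2.21 and 4.88, and its LFD-HFD tumors 1.56, 0.12, 0.69 and 1.37.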

How the data were processed

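Total RNA of 24 tumors was labelled and hybridized to Agilent mouse arrays against a pooled reference, and the intensity of each spot in both channels was deposited by the authors as Agilent Feature Extraction output (version 8.5.1.1 per the labels, 11.0.1.1 per the file headers, build mm9). The software's own log10 ratio, deposited in the same files, served as an alternative. From the intensities, spots with an outlier flag and dim rows (bands of 10 rows more than 0.5 log2 below the array's median, with 1 guard band) were left out. Background was corrected with normexp (offset 50), arrays were normalized by loess, and spots of a probe were averaged. Probes needed a signal over 10 in both channels on 80% of arrays (20 of 24), which 26754 of 39429 did, and the brightest probe stood for each of 20580 genes. Missing values were not imputed. Limma 3.58.1 in R 4.3.3 fitted onset alone over all 24 arrays for early against late, diet alone over 14 arrays for HFD against LFD, and the 6 groups together for the other comparisons, and p-values were adjusted over all genes tested (Benjamini-Hochberg, 0.05). The script was tested on simulated data. Groups came from the labels. Counts cover all 43 tested genes, of which 1 is not reported here by name and is not drawn in the figures.

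The members and gene lists were chosen with earlier results of these data known. Genes named were those called, the 5 largest onset differences in each direction, chemokines followed in glands, and the ligand or receptor partners of these. The alternatives were other background corrections, normalizations, filters and probe rules, slide and scan session as blocks, array weights, imputation, and leaving out each array. Precision is limited by the number of arrays.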

Additional observations from a re-analysis of the deposited data

Results flagged for a closer look

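In 4 of 55 groups checked over the named genes, 1 tumor stood far from the others of its group, where chance alone sets off about 1 group in 20. Cxcr4 in the HFD Late tumor MSU_96 was 1.35, with the next highest of the group at 0.54. Ccl3 in the HFD Late tumor MSU_86 was 1.22, with the next at 0.82. Ccl25 in the LFD Late tumor MSU_122a was -2.48, with the next lowest at -2.03. Cxcr3 in the HFD Late tumor MSU_62a was 1.23, the lowest of 4 measured, with the next at 1.64.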

How the results depend on the processing

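None of the results changed sign past the threshold, and the 6 genes called by onset kept their sign under all 41 alternatives. For Cxcr4 the alternative with slide as a fixed block did not compare onset within a slide. The count of chemokine genes called by onset, 6, became 11 with median centring, 10 without a filter on low signal, 10 with scan session as a block, 15 with array weights, 2 with slide as a random block, 0 with slide as a fixed block, 1 within session 1, 5 within session 2 (Ccl19, Ccr7, Cx3cl1, Cxcl12 and Cxcl14), and 3 to 8 with 1 array left out. Within HFD the count, 4, became 1 with dim rows kept, 1 with median centring, 2 with the tumor channel alone, 0 with slide as a random block, 0 with these groups alone and 17 with array weights, and was 1 to 6 with 1 array left out. Slide as a fixed block could not be fitted there. The count of 0 within HFD-LFD became 1 with slide fixed and 3 with array weights, and that for the difference between diets 1 with array weights. For late HFD against LFD it became 1 with array weights. For LFD-HFD against LFD it became 1 with imputation, 1 with array weights, 1 with a variance trend, 3 with session as a block, and 0 to 1 with 1 array left out. For late HFD-LFD against LFD-HFD it became 1 with slide fixed. HFD against LFD stayed at 0 under all 40. The share of all genes called is not given for these settings, so the counts are not results particular to chemokine genes. The cause of the changes was not tested. No paired analysis was possible because the labels carry no replicate numbers shared between groups.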
